A study of Homo sapiens with 7 samples.

Results

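LNCaP is an established prostate carcinoma cell line that depends on androgen signalling. Its promoter contacts were taken from a single loop list, in which each row joins 2 regions of a chromosome (anchors) and gives the number of read pairs that link them. The list came from HiChIP, which ligates DNA ends that lie close together in fixed nuclei and then enriches for fragments carrying a chosen protein mark. Here that mark was H3K27ac, the histone acetylation found at active promoters and enhancers. All 146350 loops on the autosomes were used, of 149226 on all chromosomes and of 538567 rows in the lists of the whole series, which also covers the T-47D breast and Ishikawa endometrial lines.

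The LNCaP cells were grown in RPMI medium with fetal bovine serum. Their chromatin was cut with MboI, an enzyme that recognises GATC. The labels give no treatment and no genetic change for these cells, and 2 samples, replicates 1 and 2, were merged into the list before it was deposited. A value per replicate is therefore not given, no spread between replicates can be computed, and no difference between genes was tested. Every value also belongs to this one line, whose copy number at each locus was not measured here.

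An enhancer is a stretch of DNA, often far from any gene, that is bound by transcription factors and raises transcription of a promoter it comes close to in the folded chromosome. In luminal prostate cells androgen signalling acts at such elements together with FOXA1, HOXB13 and other lineage factors, and secreted proteases of the kallikrein family are among the best known products of that program. H3K27ac HiChIP sees only contacts in which at least one side carries the mark, so a gene without active chromatin yields few or no loops.

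A promoter was a 500 bp window centred on any annotated transcript start of a protein-coding gene. An anchor that met no such window is called promoter-free. The 42254 autosomal anchors held 12471 over a promoter (29.5%) and 29783 promoter-free ones, with a median width of 3.23 kb. Loops between a promoter and a promoter-free anchor made up 40.3% of the list, loops between 2 promoters 20.4% and loops between 2 promoter-free anchors 39.3%. A loop carried at least 3 read pairs, a median of 5 and at most 3007, and the list held 1777734 read pairs in all.

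Of 19229 protein-coding genes on the autosomes, 11386 (59.2%) had a loop and 10283 (53.5%) had a promoter-free partner. Genes were ranked by the read pairs of all loops at their promoter anchors, and separately by the number of promoter-free anchors joined to them. The first 200 places of each ranking are described here. They are 1.04% of all protein-coding genes in either ranking, and that share is the background for each count of list members that follows. The gene lists were chosen with earlier results of these data known, so their shares describe the lists and cannot show enrichment.

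The list was looked up at 4 prostate markers. All 4 had loops, as did 59.2% of all protein-coding genes. Other prostate products went the other way, since 6 of 25 listed products of luminal cells had no loop. KLK3, which encodes prostate-specific antigen, and its neighbour KLK2 lie on the same promoter anchor. Each therefore had the same 2936 read pairs and 15 promoter-free anchors. HOXB13, a homeobox factor of the prostate and hindgut, had 3243 read pairs and 25 promoter-free anchors. TMPRSS2, an androgen-regulated surface protease, had 1056 read pairs and 25 promoter-free anchors, which put it at place 204 by read pairs and place 163 by anchors.

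Most marker genes of other cells had no loop, while 59.2% of all protein-coding genes had one. None of 6 basal cell markers had a loop, and 13 of 14 neuroendocrine markers had none, with ENO2 alone at 41 read pairs. Of 14 stromal, endothelial and immune markers on the autosomes, 11 had no loop and the highest, VWF, had 220 read pairs. Of 7 breast and endometrial regulators 5 had no loop, and ESR1, the estrogen receptor gene, had 8 read pairs. All 10 housekeeping genes had loops, but none reached either first 200. GAPDH, for example, stood at place 1607 by read pairs with 272, and ACTB at place 3898 with 122.

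Promoter sequence is shown for 3 genes of the 3 classes described below. Each window is 250 bases before to 50 bases after the outermost start of the gene, read from the GRCh37 (hg19) reference, 5′ to 3′ on the strand of the gene. Capitals mark matches to any of 6 short motifs searched on both strands. The androgen response hexamer was searched as AGAACA. For forkhead factors such as FOXA1 the search used TGTTTAC. Homeobox factors of the HOX13 group were represented by CAATAAA and the ETS factors by CCGGAAG. The motif of AP-1 was written TGACTCA, and GATA factors were given the letters AGATAAG. KLK3 (chr19:51357921-51358220, plus strand) stands for the secreted products, FOXA1 (chr14:38065215-38065514, minus strand) for the regulators, and NCAM2 (chr21:22370477-22370776, plus strand) for the neural genes.
KLK3: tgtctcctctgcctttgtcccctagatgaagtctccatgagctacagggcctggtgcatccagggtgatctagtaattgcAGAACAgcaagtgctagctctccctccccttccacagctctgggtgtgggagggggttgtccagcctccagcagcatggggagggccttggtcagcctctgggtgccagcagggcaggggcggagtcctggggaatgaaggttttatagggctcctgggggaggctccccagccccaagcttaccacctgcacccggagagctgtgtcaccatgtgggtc
FOXA1: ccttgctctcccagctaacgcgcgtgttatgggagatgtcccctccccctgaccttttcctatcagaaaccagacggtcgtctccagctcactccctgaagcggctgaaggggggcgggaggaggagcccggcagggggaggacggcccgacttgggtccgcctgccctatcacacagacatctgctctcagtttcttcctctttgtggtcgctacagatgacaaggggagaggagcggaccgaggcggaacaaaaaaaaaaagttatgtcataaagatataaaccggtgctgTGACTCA
NCAM2: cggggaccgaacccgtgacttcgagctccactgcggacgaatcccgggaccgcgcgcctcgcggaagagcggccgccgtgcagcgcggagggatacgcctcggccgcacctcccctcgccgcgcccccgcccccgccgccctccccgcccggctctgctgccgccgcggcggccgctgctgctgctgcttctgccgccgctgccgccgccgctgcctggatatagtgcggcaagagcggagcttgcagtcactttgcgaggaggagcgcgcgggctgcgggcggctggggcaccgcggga

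The KLK3 window held 1 androgen response hexamer and the FOXA1 window 1 AP-1 match, whereas the NCAM2 window matched none of the 6 motifs. The windows differed most in CpG content. KLK3 had 2 CpG dinucleotides in its 300 bases, FOXA1 16 and NCAM2 48, against a median of 18 over all 19229 genes. The same order held for the 3 groups of listed genes within either first 200: the median was 4 CpG in the 11 secretory genes, 17 in the 14 regulators and 35 in the 3 neural genes. The outermost start lay under an anchor in the 3 genes printed. It was not checked in every listed gene, so a window may not be the promoter that formed the contacts. The secretory genes were not of one kind, since SLC45A3 and STEAP1 each had 26 CpG and GOLPH3 had 30, while KLK4 had 1. Over whole rankings the promoters did not stand apart, with a median of 18 CpG for the first 200 by read pairs and 20 for the first 200 by anchors.

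Motif shares are given as a description. The androgen response hexamer lay in 31 promoters of the first 200 by read pairs (15.5%), in 14 of those by anchors (7%) and in 12.7% of all 19229. Among promoter-free anchors, the central 1000 bases held the forkhead motif in 24.7% of the 5099 anchors joined to a gene of either first 200, in 25.2% of the 16747 joined to other genes only and in 25.7% of all 29783. The shares for the androgen response hexamer were 61.0%, 60.9% and 62.0% in that order, and for the HOX13 motif 31.9%, 30.8% and 32.7%. A match describes letters in a window and does not show that a factor is bound.

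The genes with the most read pairs were PRKD1 (protein kinase D1) with 17318, MIPOL1 with 14365, the ubiquitin ligase gene NEDD4L with 11464, the leucine catabolism gene MCCC2 with 10186 and the zinc finger factor gene ZBTB16 with 7849. LIMCH1, TTC6 and FOXA1 followed with 6536, 6358 and 6348 read pairs. Then came STEAP2 with 5077, CFAP69 with 4870, NAALADL2 with 4682, AMD1 with 3839 and NCAM2 with 3671. BDP1 (3561), RERE (3484), GRHL2 (3447), HOXB13, PRAC1 and PRAC2 (3243 each) and PHF12 (3234) closed the first 20. Several of these are neighbours on one anchor. PRAC1 and PRAC2 lie on the same single anchor as HOXB13 and have its values, and a promoter anchor of FOXA1 (chr14:38026141-38075767) also covers starts of TTC6 and MIPOL1, so that the 3 genes share the contacts of that anchor.

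The order by promoter-free anchors was different. NAALADL2, a gene related to glutamate carboxypeptidases, was first with 74 anchors, and MYC had 72, LUZP2 70, the corepressor subunit gene TBL1XR1 66 and NCAM2 65. ANK3 (62), PRKD1 (61), NRP1 (61), NEDD4L (60), RERE (59), NETO1 (57) and GULP1 (51) came next. MIPOL1, PBOV1 and the Notch coactivator gene MAML3 had 45 each, GRHL2 and EHF 44 each, LPP 43, ANKH 42 and KCNN2 41. Of the first 20 genes, 7 were among the first 20 of both rankings. ANK3 encodes ankyrin-G of the axon initial segment, NRP1 a receptor for semaphorins and NETO1 an auxiliary subunit of glutamate receptors. These 3 were not on the lists of neural genes used below.

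**Figure D1:**
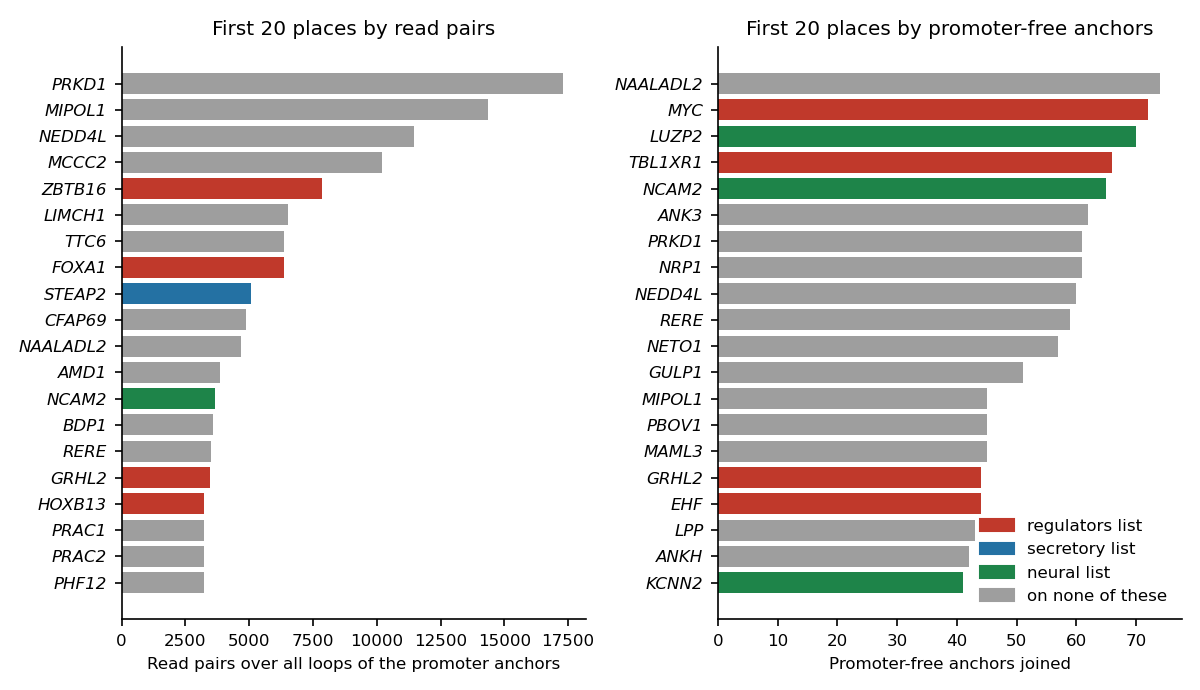
Horizontal bars give the read pairs (left) and the number of promoter-free anchors (right) of the first 20 genes in each ranking, coloured by gene list. PRKD1 leads the left panel with 17318 read pairs and NAALADL2 the right one with 74 anchors. NCAM2, GRHL2 and NAALADL2 appear in both panels.

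The first 200 by read pairs ran from 17318 down to 1066 and held 16.6% of all read pairs in 6.19% of the loops. The first 200 by anchors ran from 74 to 24. Both lists shared 96 genes (48.0% of each), and 304 genes were in at least one. At the lower border by read pairs, EEIG1 and CALD1 held the last 2 places with 1066 each, and the histone genes H2AC17 and H2BC17 the next 2 with 1061 each. The exact Poisson 95% interval of 1066 runs from 1003 to 1132 and takes in 19 genes inside the first 200 and 35 outside it, so their order is within counting error. By anchors, place 200 fell among genes with 24, of which 18 were inside and 8 outside. A gene of 72 bases known only as ENSG00000288646 and the MYC neighbour POU5F1B stood just inside, and UGT2B15 and TSPAN1 just outside.

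Read pairs and promoter-free anchors rose together across the 11386 genes with a loop (Spearman 0.73, given as a description because neighbouring genes share anchors). The genes that split the rankings were of 2 kinds. SMIM47 had 1620 read pairs but 2 promoter-free anchors, and PHF23 1411 and 4. These genes contacted other promoters, which made up 8 of the 10 partners of SMIM47 and 25 of 29 for PHF23. The opposite was seen at TARS1 with 217 read pairs over 25 promoter-free anchors, SETBP1 with 219 over 27 and CITED2 with 237 over 25.

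**Figure D2:**
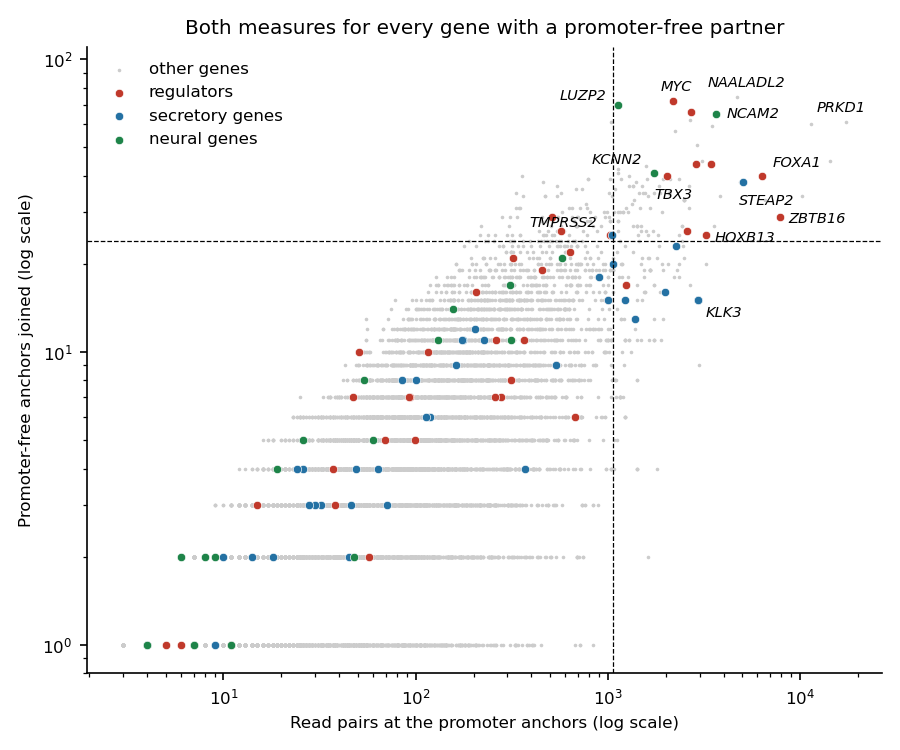
Each point is a gene with at least 1 promoter-free partner, placed by its read pairs (x axis, log scale) and its promoter-free anchors (y axis, log scale), with dashed lines at the values of place 200 (1066 and 24). CREB3L4 and XBP1, which are on a regulator and a secretory list, are drawn as secretory genes. KLK3 lies right of the vertical line and below the horizontal one, whereas MYC, LUZP2 and NCAM2 are near the top.

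Width of the promoter anchors moved with both rankings. The summed width had a median of 21.5 kb in the first 200 by read pairs and 4.69 kb in the other ranked genes, and of 18.4 kb and 4.92 kb by anchors. Spearman's rho across genes with a loop was 0.65 between width and read pairs and 0.59 between width and anchors. When both measures were divided by that width, 79 of the 200 genes kept a place by read pairs and 20 of 200 by anchors. So scaled, the regulators described next held 9 places by read pairs and 1 by anchors, the secretory genes 5 and 0, and the neural genes 0 and 1.

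Regulators of transcription held 10 of the first 200 places by read pairs and 13 by anchors, out of 44 listed, or 22.7% and 29.5% against the background of 1.04%. They were mostly lineage factors. Of 24 lineage transcription factors, 8 were in the first 200 by read pairs and 10 by anchors. A loop was found at 22, against 59.2% of all protein-coding genes, and ERG and CUX2 had none. Of 20 cofactors, TBL1XR1 and GSE1 were in both, TLE3 only by anchors, and KDM1A had no loop. The remaining cofactors that had loops ranged from SPOP with 11 read pairs to ARID1A with 678.

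FOXA1, the pioneer factor that opens chromatin for other factors, had 6348 read pairs and 40 promoter-free anchors at its single promoter anchor of 49.6 kb. Its 2 strongest promoter-free partners lay downstream, 32.9 and 58.8 kb away, with 1231 and 1230 read pairs. A further one 332 kb downstream had 730. These 3 lie within MIPOL1 (chr14:38011393-38024624, chr14:37979656-38004687 and chr14:37708904-37728533). An anchor 152 kb downstream that holds a promoter had more read pairs than any of them, 1896. Here and for the genes below, strongest and leading partners are those among promoter-free anchors. None of the 22 upstream ones had more than 52 read pairs, and the farthest lay 1443 kb away with 3.

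HOXB13 had its strongest contacts on one side and close by. The 2 leading partners, at chr17:46820367-46830262 and chr17:46831923-46839427, lay 22.2 and 32.6 kb upstream in intergenic sequence and had 1364 and 754 read pairs. The first of these alone held 51.0% of the read pairs that HOXB13 shared with promoter-free anchors. Another, in an intron of TTLL6 53.4 kb upstream, had 178. The remaining partners reached 678 kb upstream and 738 kb downstream.

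ZBTB16, a zinc finger repressor, had 7849 read pairs over 29 promoter-free anchors. Of these, 10 lay within the gene, including an intronic anchor of 31.2 kb with 2217 read pairs, the strongest promoter-free partner of any listed regulator. EHF, an ETS factor of epithelia, had 2875 read pairs over 44 anchors, and an intergenic anchor 29.9 kb downstream held 1276 of them. GRHL2, a grainyhead factor that maintains epithelial junctions, had 3447 read pairs over 44 anchors, 7 of them within the gene. The leading anchor, in its own intron, had 935.

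TBX3, a T-box repressor, differed from these in span. Its strongest partner was an intergenic anchor 1081 kb upstream (chr12:116186785-116203293) with 1000 of its 2033 read pairs, while the next, 237 kb upstream, had 234. Of its 40 promoter-free partners 33 were upstream, and none was separated from it by the outermost annotated start of another protein-coding gene. Inner starts were not counted, and an anchor 1323 kb upstream with 3 read pairs held one. Their median span was 735 kb.

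MYC, the growth regulator, had 72 promoter-free anchors at one promoter anchor of 12.7 kb and no leading partner. The strongest was 721 kb upstream with 323 of 2160 read pairs, followed by partners 647 and 522 kb upstream with 184 and 164. Its farthest contacts were 914 kb upstream and 691 kb downstream.

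A further 4 lineage factors or cofactors entered by anchors only. GATA2, a zinc finger factor, had 1039 read pairs and 25 anchors, of which 20 were downstream, and its leading partners with 214, 79 and 71 read pairs lay in introns of EEFSEC. SPDEF, an ETS factor of secretory epithelia, had 1028 and 25, led by an anchor 46.95 kb upstream with 396. FOXP1, a forkhead repressor, had 571 and 26, of which 20 were within the gene. TLE3, a Groucho corepressor, had 510 and 29, the strongest 503 kb downstream with 78.

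The other cofactors had promoter anchors of 44.5 and 37.4 kb in all. TBL1XR1, a subunit of the NCoR corepressor complex, joined 66 promoter-free anchors from 5 promoter anchors, with 242 read pairs at the strongest, 178 kb upstream. Its partners were of similar strength, since the next 2 had 177 and 172. One partner with 5 read pairs lay 1855 kb downstream within NAALADL2. GSE1, a protein of histone deacetylase complexes, had 2574 read pairs over 26 anchors, 16 of them in its own gene, and its strongest was 14.8 kb from a promoter anchor with 534.

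Sequence of the strongest promoter-free partner is shown for 4 genes, as the forkhead match nearest the middle of that anchor with 20 bases on either side (GRCh37, on the strand that reads TGTTTAC, which is the minus strand in each; capitals mark the motif). The stretches lie at chr19:51423083-51423129, chr17:46823650-46823696, chr14:38018923-38018969 and chr21:22551970-22552016.
KLK3 partner: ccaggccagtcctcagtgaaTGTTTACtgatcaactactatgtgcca
HOXB13 partner: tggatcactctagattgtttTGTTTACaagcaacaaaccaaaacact
FOXA1 partner: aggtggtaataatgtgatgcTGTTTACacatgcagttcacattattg
NCAM2 partner: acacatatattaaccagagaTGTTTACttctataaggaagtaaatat

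The whole anchors held 1 forkhead match for KLK3 in 3.88 kb, 2 for HOXB13 in 9.90 kb, 3 for FOXA1 in 13.2 kb and 6 for NCAM2 in 24.4 kb. The strongest partner of TMPRSS2, 5.41 kb wide, had no forkhead match, 3 androgen response hexamers and 4 HOX13 matches. Hexamers numbered 1, 8, 10 and 22 in the anchors of KLK3, HOXB13, FOXA1 and NCAM2. Over these 5 anchors the wider ones held more hexamers.

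Secretory genes held 10 of the first 200 places by read pairs and 2 by anchors, out of 50 listed, or 20% and 4% against 1.04%. Almost all were secreted or surface products of luminal cells and not genes of the secretory machinery. The 2 by anchors, STEAP2 and TMPRSS2, encode surface proteins. Of 25 luminal products, 9 were in the first 200 by read pairs, 2 by anchors and 6 had no loop (FOLH1, TGM4, NPY, SPINK1, SEMG1 and SEMG2). Of 25 genes of the secretory pathway machinery, 1 was in the first 200 by read pairs and none by anchors, while 4 had no loop.

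The kallikrein genes KLK2, KLK3, KLK4 and KLK15 shared one promoter anchor of 76.7 kb (chr19:51337325-51414040), the widest of all autosomal anchors in the list, so their 4 places (23 to 26) are one measurement. Of its 61 partners, 46 were promoters of other genes and 15 were promoter-free. One of the promoter-bearing anchors, 73.02 kb upstream of KLK3, held 1509 of the 2936 read pairs. A single intergenic anchor 49.1 kb from the centre, at chr19:51422838-51426716, held 723 of the 879 read pairs with promoter-free partners. The next had 62 and 23, at 198 and 335 kb. From KLK3, every one of the 15 promoter-free partners lay beyond the outermost start of another protein-coding gene. From KLK4, on the same anchor, 14 of 15 did, because the outermost start of KLK4 lies just past that anchor and counts for KLK3.

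STEAP2, a six-transmembrane metalloreductase of the cell surface, was the first of the secretory genes by both measures with 5077 read pairs and 38 anchors. Its promoter-free partners had similar strengths, with 425, 313 and 285 read pairs at the first 3, and its farthest was 1968 kb upstream. STEAP1, its neighbour, had 1982 read pairs and 16 anchors, and its strongest promoter-free partners were the same anchors in the STEAP2 introns, with 110 and 65. SLC45A3, which encodes the membrane transporter prostein, had 2250 read pairs. One anchor of 24.1 kb placed 37.8 kb upstream held 1379 of them.

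GDF15, a secreted growth factor, had 1388 read pairs, led by 329 with an anchor in PGPEP1 13.6 kb upstream. ACP3, prostatic acid phosphatase, had 1228, and its 3 leading partners were upstream at 13.0, 77.7 and 61.3 kb with 276, 197 and 192 read pairs, 2 of them in introns of CPNE4. GOLPH3, a Golgi membrane protein and the one gene of the machinery, had 1067 read pairs at place 198, which is within counting error of the border. TMPRSS2 entered by anchors only. Its strongest partner was 12.6 kb upstream (chr21:42906687-42912094) with 358 read pairs, followed by 87 at 43.7 kb and 82 at 18.9 kb, and 22 of 25 partners were upstream. Just 2 of its 13 annotated starts, both at the upstream end of the gene, lay under an anchor.

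Other luminal products ranked low. MSMB, which encodes beta-microseminoprotein, had 28 read pairs, AZGP1 18, LTF 14 and PIP 4. HPN, a surface protease, had 228, AGR2 71 and the cation channel gene TRPM8 100.

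Androgen response genes overlapped both groups. All 25 on the list had a loop, against 59.2% of all protein-coding genes. By each measure 7 were in the first 200 (28.0% against 1.04%), and 11 were in at least one. AMD1, an enzyme of polyamine synthesis, led with 3839 read pairs over 34 anchors, of which 1780 joined a 43.4 kb anchor in a CDK19 intron 225 kb upstream. TPD52 had 1655 read pairs and 31 anchors, FKBP5, a cochaperone of steroid receptors, 1278 and 30, and the efflux transporter gene ABCC4 1116 and 22. FKBP5 had its leading partners in its own introns, with 204, 136 and 121 read pairs. NDRG1 and ZBTB10 entered by anchors only, with 28 and 26. KLK2 and KLK3 were also among the places by read pairs, and TMPRSS2 and SPDEF among those by anchors.

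Listed neural genes held 3 places by read pairs and the same 3 by anchors, out of 112 listed (2.68% against 1.04%). That count depends on the genes listed. ANK3, NETO1 and the neuropeptide gene CARTPT were not listed but held places 31, 50 and 44 by read pairs. By anchors they held places 6, 11 and 162. Most listed neural genes had no loop: 39 of 49 adhesion and guidance genes, 38 of 50 channels and receptors and 13 of 14 neuroendocrine markers had no loop. Of all 19229 protein-coding genes, 7843 had none. The listed neural genes that ranked were NCAM2, a neural cell adhesion molecule, LUZP2, a leucine zipper protein known mainly from brain, and KCNN2, a calcium-activated potassium channel of neurons.

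NCAM2 had 3671 read pairs and 65 promoter-free anchors from 2 promoter anchors of 43.6 kb together. Of these, 30 lay within the gene, and 58 of 65 were downstream of the promoter anchor used. The strongest, an intronic anchor at chr21:22542859-22567295, had 415 read pairs at 177 kb, and the next 2 had 242 and 237. Its farthest lay 1996 kb downstream with 4 read pairs, the longest promoter-free contact among all genes of the first 200 lists. That distance is from the promoter anchor chr21:22822768-22850146, over an inner start of the gene and not the outermost start shown above. None of the 65 was separated from the gene by the outermost start of another protein-coding gene.

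LUZP2 had fewer read pairs, 1128, spread over 70 anchors. The strongest 2 had 125 and 119 and lay in its introns at 102 and 96.5 kb. Its median span was 558 kb, with 32 partners upstream and 38 downstream, 26 within the gene and 1 beyond the outermost start of another gene. KCNN2 had 1734 read pairs over 41 anchors, of which 15 were within the gene and 3 beyond such a start. Its strongest, with 441, was intronic and 13.8 kb from a promoter anchor.

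Below place 200, KCNMA1, another calcium-activated potassium channel gene, was the highest of the neural genes with 574 read pairs and 21 anchors, then KCNH8 with 315 and KCNC2 with 310. LRRC4C had 157 and SEMA3C 130. The neural genes with loops thus ran from 3671 read pairs down to CACNA1C with 3.

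**Figure D3:**
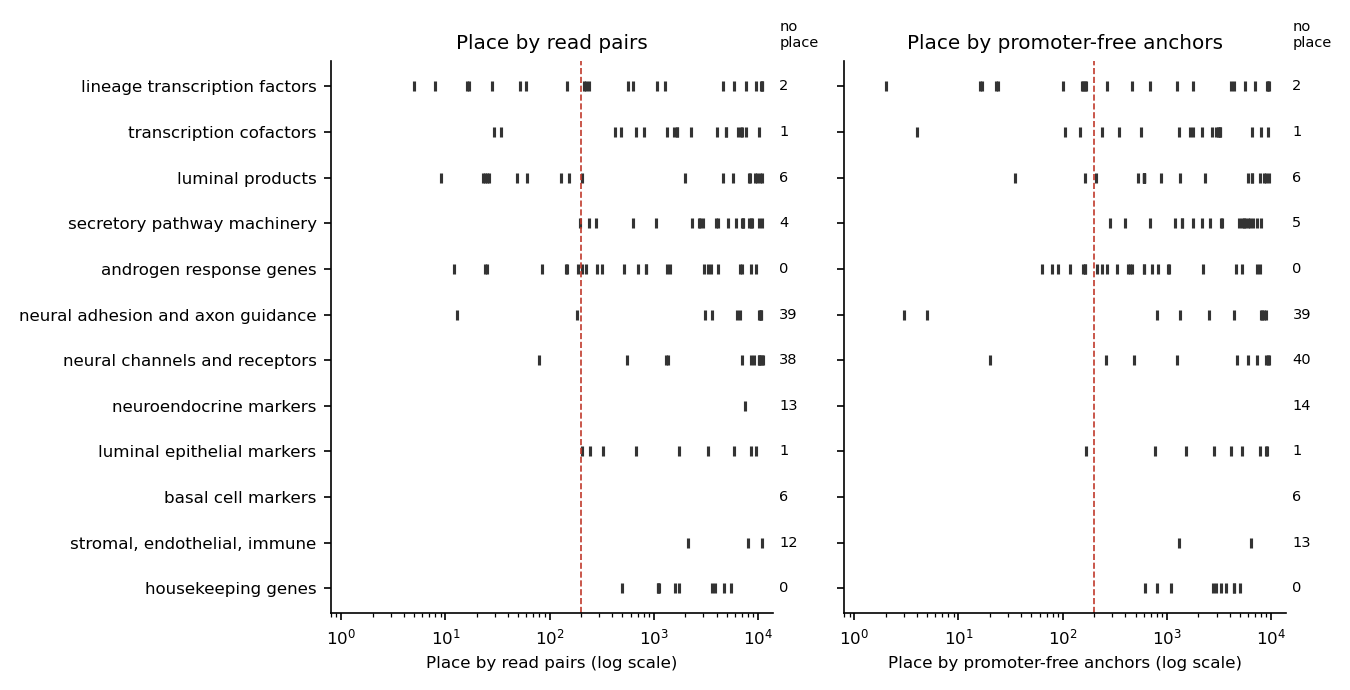
Each tick is a listed gene at its place by read pairs (left) or by promoter-free anchors (right), on log axes, with the red line at place 200 and the number of listed genes without a place at the right edge. Lineage factors reach left of the line in both panels (8 and 10 of 24), luminal products mainly in the left one (9 and 2 of 25), and 39 of 49 neural adhesion genes have no place in either.

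Epithelial markers that are not specific to prostate held 0 of the first 200 places by read pairs and 1 by anchors. Loops were found at 9 of 10, against 59.2% of all protein-coding genes. Their median was 200 read pairs, while the 25 luminal products of prostate had a median of 71. Of 10 luminal epithelial markers, 1 was in a first 200: CDH1, which encodes E-cadherin, stood at place 166 by anchors with 25 and at place 205 by read pairs with 1055. CLDN7 had 981 read pairs over 4 anchors, KRT8 512 and KRT18 253, and KRT19 had no loop.

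Contacts of the first 200 genes reached farther than those of the other genes. The median span between the centres of the promoter anchor and the promoter-free partner was 244 kb by read pairs (95% order-statistic interval 232 to 256, 4954 contacts) and 257 kb by anchors (248 to 266, 6489 contacts), against 117 kb and 115 kb in the other ranked genes. Spans over 500 kb made up 27.4% (Wilson 95% interval 26.2 to 28.7) and 26.95% (25.9 to 28.0), against 9.43% and 8.98%. Spans over 1000 kb made up 9.43% and 8.26%, against 1.90% and 1.82%. At the other end, 6.26% and 5.59% of contacts were under 20 kb, against 13.2% and 13.5%. The intervals treat each contact as an independent count and cover no spread between replicates. Genes on one anchor share contacts and PCR copies cannot be told from separate molecules, so the intervals are likely too narrow. Rankings and spans come from the same contacts and are not independent. How far the choice of genes by rank sets their span was not tested.

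The span depended on weak loops. With loops of at least 10 read pairs the medians fell to 103 kb and 109 kb, but those of the other genes fell to 41.0 and 38.6 kb, so the ratio of first 200 to other genes went from 2.07 to 2.50 by read pairs and from 2.24 to 2.82 by anchors. Over all 11 alternatives the ratio lay between 1.55 and 2.82.

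**Figure D4:**
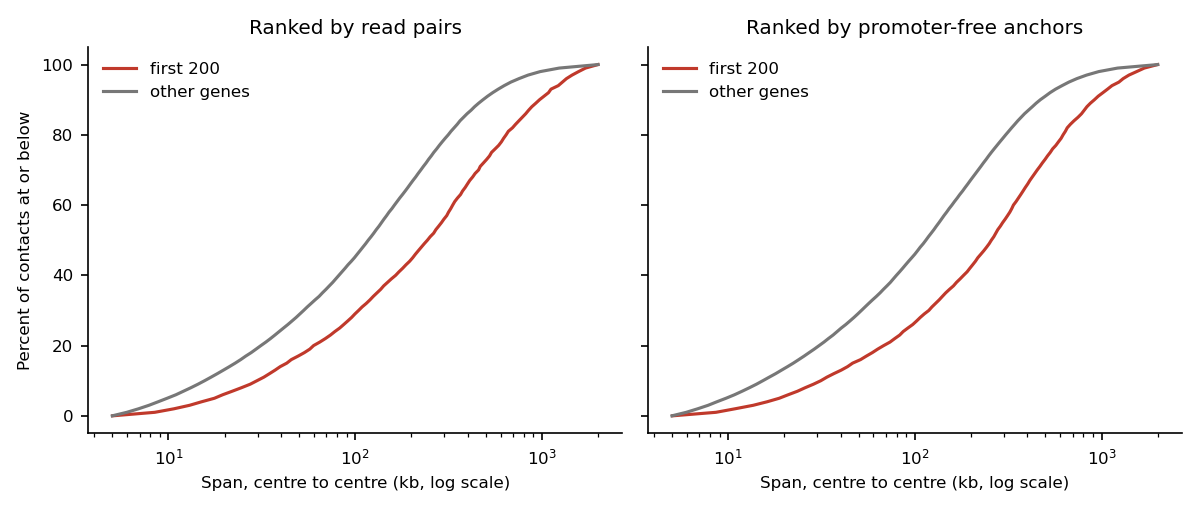
Curves give the percent of promoter-free contacts at or below each span (kb, log scale) for the first 200 genes (red) and the other ranked genes (grey), by read pairs (left) and by anchors (right). The red curve lies to the right in both panels, with medians of 244 against 117 kb and 257 against 115 kb.

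Among the first 200 genes of either ranking, the longest 3 promoter-free contacts had 3 or 4 read pairs each. After NCAM2 came SMCHD1 with a partner 1987 kb upstream in a YES1 intron (3 read pairs) and FOXO3 with an intergenic partner 1969 kb downstream (3 read pairs). The strongest were short. PRKD1 joined an intronic anchor of 45.3 kb, 34.9 kb from the nearest of its 5 promoter anchors, with 6128 read pairs summed over these anchors. That nearest one, chr14:30240089-30244770, lies over an inner start within the gene and not over its outermost start. MIPOL1 had 3094 with an anchor of 25.03 kb in its own introns at 58.8 kb, which is the second partner of FOXA1, and 2487 with one at 20.01 kb. Both distances are from promoter anchors over inner starts of MIPOL1.

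Position relative to the promoter was balanced. Upstream partners made up 49.2% of contacts by read pairs (47.8 to 50.6) and 49.5% by anchors (48.3 to 50.7), against 49.4% in the other genes of either ranking. Upstream is counted from the promoter anchor nearest to the partner, so for a gene with several starts an upstream partner may lie within the gene. Partners within the body of the own gene made up 17.7% and 18.9%, against 17.5% and 17.4%. By anchors that share was 33.5% when loops needed at least 10 read pairs and 12.2% when anchors were counted per kb of promoter anchor.

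Single genes departed from that balance in both directions. NRP1 had 51 of 61 partners upstream, NETO1 47 of 57 and TBX3 33 of 40, whereas NAALADL2 had 55 of 74 and NCAM2 58 of 65 downstream. NAALADL2, a gene of 1372 kb, had 52 of its 74 partners within its own body, the strongest 77.3 kb from a promoter anchor with 965 read pairs. MAML3 had 25 of 45 and LPP 29 of 43 inside.

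More of the partners were intergenic than elsewhere, 44.6% by read pairs (43.3 to 46.0) and 44.5% by anchors (43.3 to 45.7), against 37.4% and 37.3%. Introns held 50.8% and 51.7% and exons 4.56% and 3.71%. The outermost start of another protein-coding gene lay between promoter and partner in 56.6% of contacts by read pairs and 50.5% by anchors, against 56.9% and 57.6%. The share differed widely by gene, from 0 of 74 at NAALADL2, 0 of 65 at NCAM2 and 0 of 40 at TBX3 to 29 of 34 at AMD1, 30 of 38 at STEAP2 and 15 of 15 at KLK3. KLK4, on the anchor of KLK3, had 14 of 15.

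**Figure D5:**
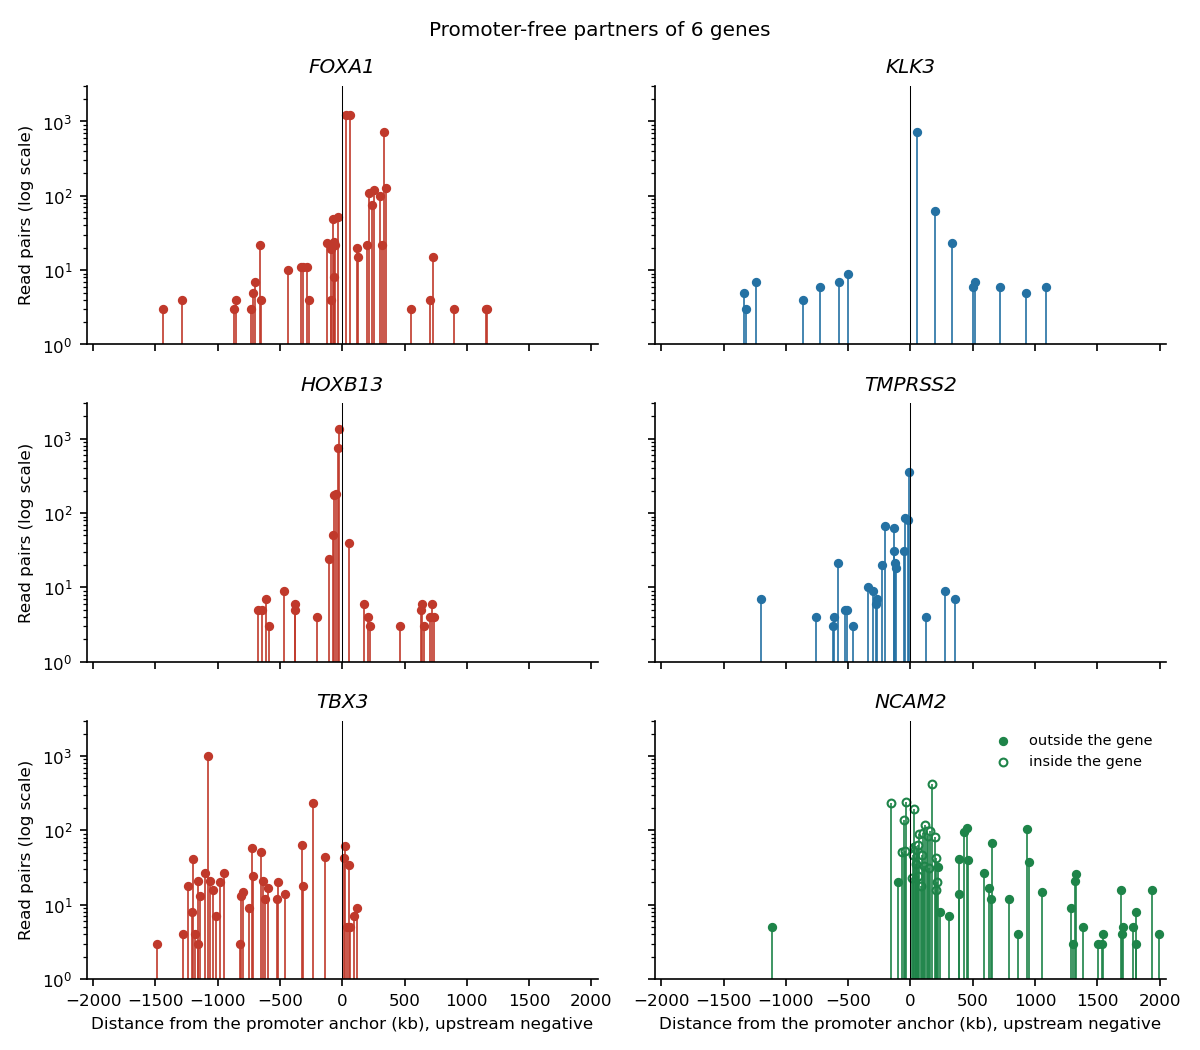
Each stem is a promoter-free partner of FOXA1, HOXB13, TBX3, KLK3, TMPRSS2 or NCAM2, with its read pairs on a log scale. It is placed by its distance from the nearest promoter anchor joined to it (kb, upstream negative), and open symbols lie within the gene. The tallest stems of HOXB13 and TMPRSS2 stand next to the promoter on the upstream side, that of TBX3 stands 1081 kb upstream, and NCAM2 has a row of stems out to 1996 kb downstream.

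Partners that were promoters made up 39.5% of all contacts of the first 200 by read pairs and 21.3% by anchors, against 51.6% and 51.2% in the other genes. The ranking by anchors counts promoter-free partners only, so a low share there follows at least partly from how its genes were chosen. The rankings also differed by chromosome. Chromosome 6 held the most genes of both, with 29 and 28 (2.77% and 2.67% of its 1048 coding genes), and chromosome 17 held 27 by read pairs but 5 by anchors. Chromosome 19 held 11 and 0, chromosome 1 17 and 25, chromosome 5 13 and 22, and chromosome 2, with 1254 coding genes, 2 and 5.

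Genes that share anchors are counted one by one here. On chromosome 6, 19 genes of the first 200 lists, nearly all replication-dependent histone genes, were joined to the same promoter-free anchors from 6 sets of promoter anchors. On chromosome 17, 9 genes around PHF12 and TRAF4 shared anchors in FAM222B. Over all, the first 200 genes stood on 160 distinct sets of promoter anchors by read pairs and 181 by promoter-free anchors, and 59 and 31 of them had all anchors in common with another gene.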

How the data were processed

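H3K27ac HiChIP was measured in 2 LNCaP samples. Per the study's methods and the submitters' processing notes, the authors aligned reads to hg19 with HiC-Pro, called loops with hichipper, merged the replicates and removed loops with few reads or high FDR. The deposited unit is the raw count of read pairs per loop, with no normalization by the authors. Edges of all 42254 autosomal anchors (100% of starts and ends) fell on GATC in GRCh37.

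Loops were joined to protein-coding starts of GENCODE 44 (lifted to GRCh37) within a 500 bp window. Genes were ranked by read pairs and by promoter-free anchors. Ties in read pairs were broken by the number of promoter-free anchors. Ties in anchors were broken by the read pairs to those promoter-free anchors only, and remaining ties by symbol. A partner reached from several promoter anchors has their counts summed. Intervals are at the 95% level. Genes named are the first 20 of each ranking, listed genes within the first 200, markers, border genes, those lowest in the other ranking and extreme contacts; some of these are not reported here. The members and the gene lists were chosen with earlier results of these data known. Scripts were tested on simulated data (Python 3.11.15, numpy 2.4.6, pandas 2.3.3, scipy 1.17.1). PECAM1 had no match by symbol. The 2876 loops on chromosomes X and Y were left out of the rankings. Alternatives changed the read pair minimum, promoter window, start sites, span, promoter definition, width scaling, depth (thinning), shared anchors and chromosomes. No paired analysis was possible because the replicates were merged in the list.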

Additional observations from a re-analysis of the deposited data

Results flagged for a closer look

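Genes of chromosome X are outside the autosomal rankings, and the one with the most read pairs among those looked up stood out. KDM6A, a histone demethylase gene chosen after its value was seen, had 1352 read pairs and 22 promoter-free anchors. Placed among the autosomal genes, it would stand at place 137 by read pairs and place 236 by anchors.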

How the results depend on the processing

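Loops of at least 5 read pairs gave median spans of 161 kb by read pairs and 180 kb by anchors, with 23.6% of contacts of the first 200 by anchors inside the own gene. At least 10 gave 103 and 109 kb, 33.5% inside and 5 secretory places by anchors. A 2 kb promoter window left 1 secretory place by anchors. With 1 start site per gene the spans were 268 and 271 kb, 13.4% lay inside and 6 secretory genes ranked by anchors. Spans limited to 20 kb to 1 Mb gave 210 and 232 kb and 19.98% inside. Promoter-free against all annotated genes gave 226 and 240 kb and 20.9%. Counting read pairs to promoter-free anchors only gave 201 kb by read pairs. Thinning each loop at random to 50% of its read pairs gave 155 and 175 kb and 24.3%. Genes on the same anchors in 1 place gave 217 and 242 kb and 20.6%.

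Dividing by promoter anchor width lowered the number of places of regulators, secretory and neural genes by both measures. By read pairs there were 5 secretory and 0 neural places, with a median span of 228 kb. By anchors there were 1 regulator, 0 secretory and 1 neural place, with a span of 186 kb and 12.2% inside, and 15 genes were shared by both lists. The number of regulators by read pairs stayed within 1.5 times under all 11 alternatives, and including chromosomes X and Y moved no result that far. The cause of these changes was not tested.

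The list has no replicate values, so depth can be judged only by counts. Most loops rest on few read pairs (median 5), and thinning kept 191 of 200 genes by read pairs and 172 of 200 by anchors. Fewer were kept by anchors with at least 10 read pairs (141), with 1 start site per gene (140 by read pairs and 137 by anchors), by read pairs to promoter-free anchors only (122) and per kb of promoter anchor (79 and 20).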
